A study of Mus musculus with 8 samples.

Results

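The genes described here are 35 members of the amino acid response, the programme that the transcription factor ATF4 switches on when amino acids run short. They were chosen by name, as the rows of the count table for ATF4 and its partners and targets, the enzymes of serine synthesis and one-carbon metabolism, and amino acid transporters. All 35 were found among the 56980 gene IDs of the table, and 33 of them had enough counts to be tested. The RNA came from cultured oligodendrocyte progenitors of the mouse, which divide and give rise to the cells that make myelin. The low glucose group (LG) comprised 4 libraries of cultures brought down in daily medium exchanges to 2.5 mM glucose, and the high glucose group (HG) 4 libraries of cultures kept at 25 mM. In both, the cells came from the cortex of WT C57BL/6 pups of either sex at postnatal day 6-8, were captured with an antibody to CD140α (PDGFRα), and were first expanded with PDGF-AA at 10 ng/mL and bFGF at 20 ng/mL. PDGF-AA alone remained in both groups until harvest on day 5, so neither group shows the cells without a mitogen, and the reference level of 25 mM was also the level at which all cultures were expanded. Replicates 1 and 2 of each group share a code in the labels and replicates 3 and 4 have a code each, the same 3 codes in LG and HG. What a code marks is not stated, and it is called a preparation here. If it marks a preparation, the 4 pairs come from 3 of them, and n = 4 counts libraries.

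In the amino acid response, uncharged transfer RNA activates the kinase GCN2, encoded by Eif2ak4, which phosphorylates the initiation factor eIF2. General translation then falls while that of the Atf4 mRNA rises, so the amount of Atf4 mRNA does not measure the amount of ATF4 protein. ATF4 pairs with other basic leucine zipper proteins, such as those of the C/EBP family, on C/EBP-ATF response elements of genes for amino acid synthesis and uptake. Serine synthesis branches from glycolysis at 3-phosphoglycerate, which links these enzymes to glucose supply, and in brain tissue Phgdh is known as a gene of astrocytes and radial glia.

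The promoters of 6 tested members are shown because they hold the core letters of such an element, TGATGNAA, on either strand. The RefSeq table of build GRCm38.p6 had promoter windows for 29 of the 35 members, and the 250 bases before each start were searched, with matches on both strands counted and overlaps between matches allowed. The letters were found in 7 of these 29 members (24.1%), against 1056 of 27025 genes in the table (3.91%). The list includes genes chosen as ATF4 targets, so these shares are not independent of that choice and were not tested against each other. The windows printed here run 5′ to 3′ along the gene's strand and the match is in capitals. A match is a string of letters, and binding was not measured.
Pck2: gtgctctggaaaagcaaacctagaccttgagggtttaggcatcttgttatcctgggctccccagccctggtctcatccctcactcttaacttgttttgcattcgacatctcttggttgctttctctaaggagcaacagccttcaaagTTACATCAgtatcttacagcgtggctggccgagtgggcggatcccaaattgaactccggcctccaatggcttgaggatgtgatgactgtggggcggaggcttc
Pycr1: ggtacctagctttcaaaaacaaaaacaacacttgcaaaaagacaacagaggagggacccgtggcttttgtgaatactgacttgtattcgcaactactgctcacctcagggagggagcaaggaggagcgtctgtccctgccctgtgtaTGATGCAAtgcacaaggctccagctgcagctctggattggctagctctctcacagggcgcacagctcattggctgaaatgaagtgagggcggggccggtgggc
Asns: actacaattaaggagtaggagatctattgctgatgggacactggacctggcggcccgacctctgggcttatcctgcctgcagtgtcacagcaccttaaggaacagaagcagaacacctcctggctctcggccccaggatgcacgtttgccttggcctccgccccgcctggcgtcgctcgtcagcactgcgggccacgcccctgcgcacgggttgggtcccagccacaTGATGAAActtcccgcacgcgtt
Atf3: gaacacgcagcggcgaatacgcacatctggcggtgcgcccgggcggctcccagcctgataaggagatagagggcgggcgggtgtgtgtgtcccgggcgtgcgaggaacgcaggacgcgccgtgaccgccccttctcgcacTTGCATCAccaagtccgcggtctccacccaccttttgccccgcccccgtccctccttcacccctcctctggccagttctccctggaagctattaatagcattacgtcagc
Chac1: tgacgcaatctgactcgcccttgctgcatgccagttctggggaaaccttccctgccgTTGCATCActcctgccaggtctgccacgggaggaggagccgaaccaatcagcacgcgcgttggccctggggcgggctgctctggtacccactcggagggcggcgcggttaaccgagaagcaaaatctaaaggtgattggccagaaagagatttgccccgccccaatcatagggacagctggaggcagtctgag
Slc7a11: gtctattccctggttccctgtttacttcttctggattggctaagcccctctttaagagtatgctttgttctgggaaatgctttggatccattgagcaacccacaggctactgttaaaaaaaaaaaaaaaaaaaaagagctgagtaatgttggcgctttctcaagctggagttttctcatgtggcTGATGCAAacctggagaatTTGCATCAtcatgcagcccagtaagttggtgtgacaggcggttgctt
The Pck2 window lies at chr14:55540016-55540265 (plus strand) and that of Pycr1 at chr11:120643749-120643998 (minus strand), each with its match 103 to 96 bases before the start, on the opposite strand in Pck2. The Asns window is chr6:7693210-7693459 (minus strand), with the match 23 to 16 bases before the start. The Atf3 window is chr1:191183334-191183583 (minus strand) and that of Chac1 chr2:119350992-119351241 (plus strand), with the letters on the opposite strand 110 to 103 and 193 to 186 bases before the start, in that order. Slc7a11, at chr3:50443614-50443863 (minus strand), holds a match on each strand, 66 to 59 and 47 to 40 bases before the start. The other member with the letters, Nupr1, was too low to be tested. In LG against HG, in the fit with the replicate block given in the next paragraph, 5 of these 6 members had a log2 fold change above 0, with a median of 0.17, against 13 of 21 tested members with a window and no match, with a median of 0.041. No test was made of that difference. Of these 6, Atf3 held only 6 to 22 counts per library and Chac1 37 to 93. Between LG and HG replicate 4, the log2 differences of the 6 ran from -0.17 for Chac1 to 0.18 for Pck2.

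Lowered glucose gave no call for any of these genes by edgeR. When replicate numbers were ignored, edgeR's quasi-likelihood test called nothing: 0 of 33 members and 0 of 18905 genes (0%) had a Benjamini-Hochberg adjusted p under 0.05, and 1 member and 745 genes (3.94% of all) had an unadjusted p under 0.05. With the replicate number as a block, which compares LG and HG within pairs, 0 members passed while 79 genes did (0.418%), and 7 of 33 members had an unadjusted p under 0.05, against 13.4% of all genes. With the block and offsets for GC content and length, 0 members and 151 genes passed (0.799%). DESeq2 with the same block called 1 member, the arginine and lysine transporter gene Slc7a1. It gave an adjusted p to 13040 genes, of which 453 passed (3.47%), and none to Atf3, Cebpb and Chac1. DESeq2 without the block called 0 members and 7 of 13407 genes (0.0522%). The members' differences were small: with the block, the 33 log2 fold changes had a median of 0.042, against 0.0015 over all genes tested, and ran from -0.27 to 0.40. Of the 33, 21 were above 0 and 12 below, against 50.4% of all genes above 0. By role, 8 of 11 tested regulators, 8 of 11 enzymes and 5 of 11 transporters were above 0. With the block and the offsets, the members' median was 0.026, against 0.021 over all genes, so their excess was smaller. In that fit 21 of 33 members and 10565 of 18905 genes were above 0. The summed level of the 13 regulators was 384 ± 20.1 CPM (counts relative to library size, scaled by edgeR's TMM factors) in LG and 389 ± 13.6 CPM in HG, that of the 11 enzymes 1331 ± 61.9 CPM in LG and 1257 ± 86.3 CPM in HG, and that of the 11 transporters 986 ± 67.8 CPM in LG and 1001 ± 75.5 CPM in HG (SD, n = 4 each).

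The intervals show how large a difference the data still allow. With the block, the 95% confidence interval of the log2 fold change lay between -0.5 and 0.5 for 29 of 33 members and its half-width had a median of 0.16. The widest interval belonged to Atf3, from -0.49 to 1.28, a gene with only 6 to 22 counts per library. The plot of the members' fold changes shows that most intervals include 0, and a test that is not passed does not show equal levels.

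**Figure D1:**
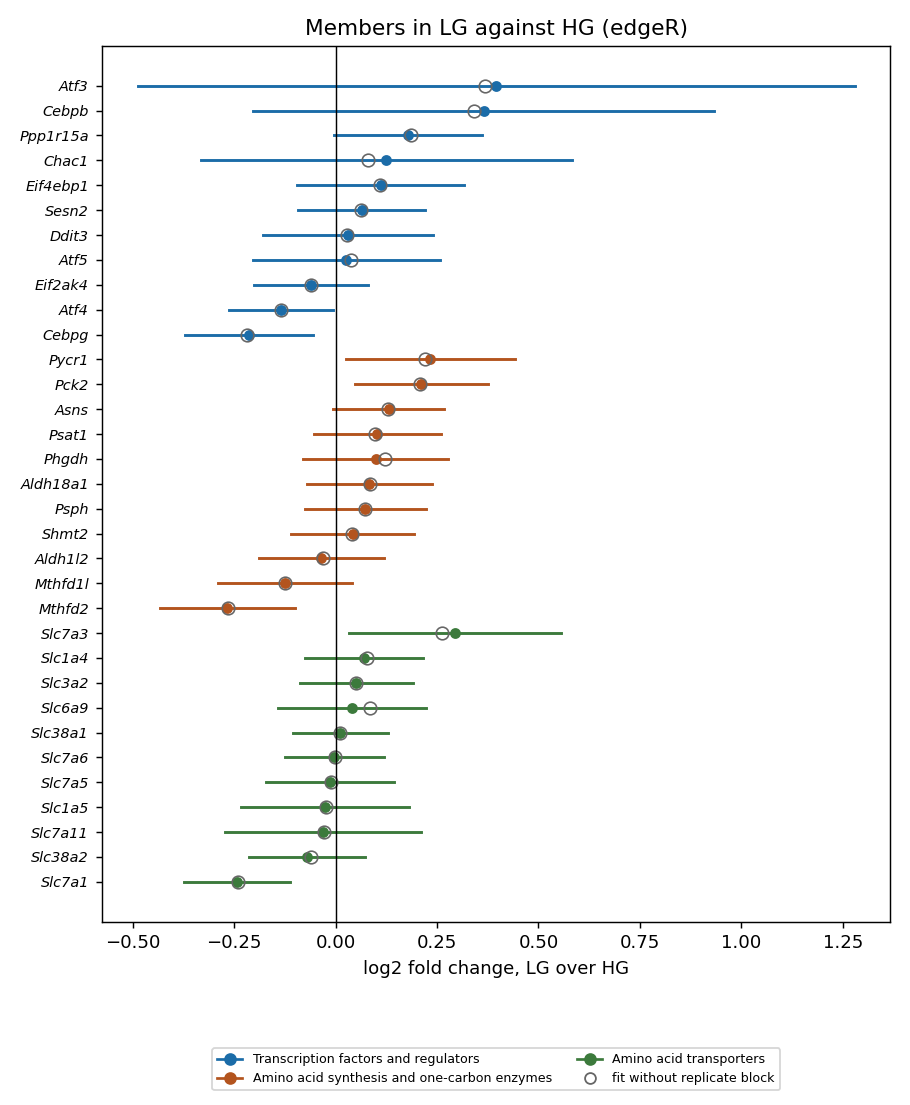
Log2 fold change of LG over HG for the 33 tested members (x axis) by role. Filled points and bars are edgeR estimates with the replicate block and their 95% confidence intervals, open circles the estimates without the block. Slc7a1, Mthfd2, Cebpg and Atf4 have intervals below 0, and Pck2, Pycr1 and Slc7a3 above 0, none with an adjusted p under 0.05.

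The pairs did not move together. The median difference of the 33 members (log2 CPM in LG minus HG) was 0.22 in pair 1, 0.010 in pair 2, 0.0090 in pair 3 and -0.084 in pair 4, while that of all tested genes lay between -0.0089 and 0.0063. In pair 1 22 of 33 members were higher in LG, and in pair 4 10 of 33 were. The same sign in 4 of 4 pairs was found for 10 of 33 members, 4 higher in LG and 6 lower, against 10.7% of all genes higher in each pair and 11% lower. Without HG replicate 1, the median log2 fold change of the members without the block was -0.0064, and without pair 1 the median with the block was 0.00096, against 0.050 and 0.042 with all libraries.

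**Figure D2:**
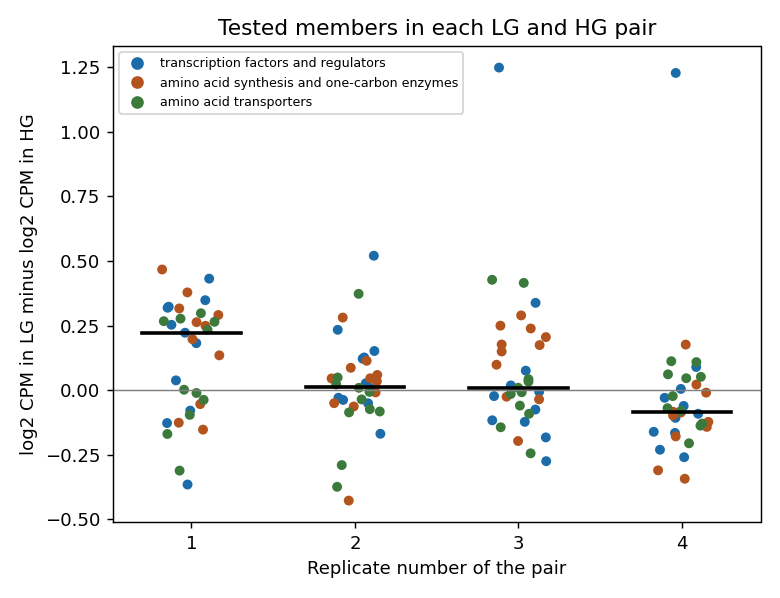
Difference of log2 CPM, LG minus HG, in each of the 4 pairs of equal replicate number (x axis). Each point is 1 of the 33 tested members, coloured by role, and the bar is their median: 0.22, 0.010, 0.0090 and -0.084.

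Among the regulators, Atf4 itself was slightly lower in each LG library than in the HG library of the same number. Atf4 (ENSMUSG00000042406, GRCm38 chr15:80255184-80257541) stood at 115, 111, 110 and 101 CPM in LG replicates 1 to 4, against 126, 124, 111 and 118 CPM in HG. The groups overlapped, since HG replicate 3 was below LG replicate 1. Its log2 fold change with the block was -0.13 (95% confidence interval -0.26 to -0.0053, edgeR adjusted p = 0.350). Cebpg, which encodes a C/EBP partner of ATF4, had 28.7, 28.5, 23.4 and 25.7 CPM in LG and 36.9, 29.5, 28.4 and 28.7 CPM in HG. It was lower in LG in 4 of 4 pairs, most in pair 1 where HG replicate 1 stood above the other HG libraries, at -0.21 with the block (edgeR adjusted p = 0.233). Eif2ak4, the gene of the amino acid sensor kinase GCN2, was at 24.2 to 27.1 CPM in LG and 25.6 to 27.7 CPM in HG, lower in LG in 4 of 4 pairs by a log2 fold change of only -0.061 (edgeR adjusted p = 0.718).

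Of the stress genes of the programme, Ddit3 held 354 to 494 counts per library in LG and 353 to 458 in HG, and Chac1, Trib3, Nupr1, Cebpb and Atf3 were lower per length. Ddit3, which encodes CHOP, a factor linked to cell death under prolonged stress, had 7.37, 7.51, 6.64 and 7.29 CPM in LG and 6.50, 7.71, 6.30 and 7.77 CPM in HG. The LG values lay within the range of the HG values, with a log2 fold change of 0.030 and an interval from -0.18 to 0.24. Chac1, a glutathione-degrading enzyme and ATF4 target, had 0.929 to 1.39 CPM in LG and 0.708 to 1.54 CPM in HG. Trib3, a pseudokinase that restrains ATF4, held 4 to 15 counts per library in LG and 8 to 11 in HG. Nupr1, a small stress-induced chromatin protein gene, held 2, 3, 0 and 0 counts in LG replicates 1 to 4 and 2, 3, 0 and 0 in HG, so both genes were left out by the filter on low counts. Cebpb, another C/EBP gene, lay at 0.676 to 1.56 CPM in LG and 0.560 to 1.55 CPM in HG. Its pair differences ran from -0.12 to 1.23, the last in pair 4. Atf3, a stress-induced repressor gene, was at 0.221 to 0.344 CPM in LG and 0.0985 to 0.287 CPM in HG, with the low value in HG replicate 3.

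Feedback and signalling genes of the response were measured at moderate levels. Ppp1r15a encodes GADD34, which brings a phosphatase to eIF2, and averaged 16.6 ± 2.23 CPM in LG and 14.6 ± 0.871 CPM in HG (SD, n = 4 each). It was higher in LG in pairs 1 to 3 and at -0.030 in pair 4, with a log2 fold change of 0.18 (edgeR adjusted p = 0.379). Sesn2, a leucine-sensing inhibitor of mTORC1, averaged 156 ± 7.39 CPM in LG and 149 ± 13.4 CPM in HG. Eif4ebp1, a repressor of cap-dependent translation, averaged 10.8 ± 0.742 CPM in LG and 10.0 ± 1.04 CPM in HG. Atf5, a factor controlled like ATF4 at translation, averaged 28.8 ± 4.65 CPM in LG and 28.0 ± 2.16 CPM in HG, and its pair differences ran from 0.43 in pair 1 to -0.26 in pair 4. For these 4 genes the difference of the means was smaller than the larger of the SDs.

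The first enzymes of serine synthesis, Psat1 and Phgdh, were the most abundant members per length, while Psph, the last, stood at 12.3 CPM per kb in LG and 11.7 in HG. Per kilobase of annotated exon, Psat1 (phosphoserine aminotransferase) was first at 155 CPM per kb in LG and 144 in HG, then Phgdh, which opens the pathway, at 83.2 CPM per kb in LG and 76.5 in HG. Next came Atf4 at 46.3 CPM per kb in LG and 50.8 in HG, Sesn2 at 44.9 in LG and 43.0 in HG, and Slc38a2 at 39.2 in LG and 40.9 in HG, in that order in both groups. In LG these 3 neighbours did not differ beyond the largest of their SDs of 2.59, 2.13 and 7.74 CPM per kb. In HG, with SDs of 2.91, 3.87 and 5.81 CPM per kb, Atf4 stood above both others by more than these SDs, while Sesn2 and Slc38a2 did not differ beyond theirs. Psat1 had 646, 579, 725 and 679 CPM in LG, against 539, 556, 643 and 720 CPM in HG. LG was higher in pairs 1 to 3 and lower in pair 4, with a log2 fold change of 0.10 (interval -0.054 to 0.26, edgeR adjusted p = 0.566). Psph, which completes serine synthesis, averaged 53.3 ± 2.91 CPM in LG and 50.6 ± 2.35 CPM in HG (SD, n = 4 each).

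Of the 4 mitochondrial one-carbon enzymes, 3 had a log2 fold change below 0. Mthfd2, a folate enzyme of dividing cells, had 21.8, 17.99, 15.6 and 17.5 CPM in LG, against 23.8, 24.2, 17.9 and 21.7 CPM in HG. It was lower in LG in 4 of 4 pairs, by a log2 fold change of -0.27 (interval -0.43 to -0.10), and did not pass (edgeR adjusted p = 0.169). Mthfd1l, the next enzyme that releases formate, was at 21.5 to 24.0 CPM in LG and 24.1 to 27.2 CPM in HG. It was the 1 of 33 members whose groups did not overlap, against 2.89% of all genes, and its log2 fold change was -0.13 (edgeR adjusted p = 0.498). Shmt2, the serine hydroxymethyltransferase of mitochondria, averaged 105 ± 4.04 CPM in LG and 102 ± 7.89 CPM in HG, and Aldh1l2, a formyl-folate dehydrogenase, 64.0 ± 7.01 CPM in LG and 65.4 ± 4.96 CPM in HG (SD, n = 4 each). Both differences were smaller than these SDs.

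Of the remaining enzymes, Pck2 and Pycr1 were higher in LG in 4 of 4 pairs. Pck2, the mitochondrial form of phosphoenolpyruvate carboxykinase, had 15.0, 16.2, 17.9 and 18.8 CPM in LG, against 12.04, 15.0, 15.2 and 16.7 CPM in HG. The groups overlapped, and the log2 fold change of 0.21 (interval 0.047 to 0.37) had an edgeR adjusted p = 0.252. Pycr1, which makes proline, had 9.78, 9.45, 11.8 and 10.3 CPM in LG, against 7.07, 7.77, 10.5 and 10.2 CPM in HG, at a log2 fold change of 0.23 (edgeR adjusted p = 0.313). The pair difference was 0.47 in pair 1 and 0.021 in pair 4. Aldh18a1, which acts before Pycr1 in proline synthesis, averaged 106 ± 9.87 CPM in LG and 100.0 ± 8.05 CPM in HG. Asns, asparagine synthetase and a standard reporter of ATF4 activity, had 70.3, 63.2, 76.1 and 70.8 CPM in LG, against 61.3, 59.5, 64.0 and 71.3 CPM in HG. Asns was higher in LG in pairs 1 to 3 and at -0.010 in pair 4, with a log2 fold change of 0.13 (interval -0.0068 to 0.27, edgeR adjusted p = 0.394).

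**Figure D3:**
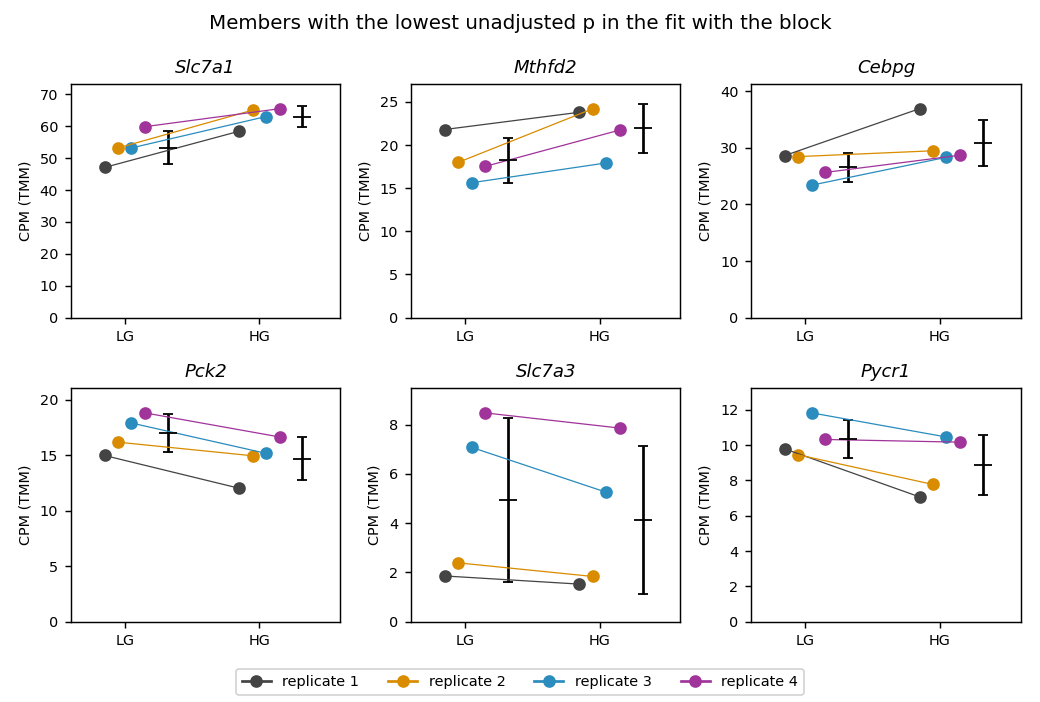
TMM-normalised CPM (y axis) of the 6 members with the lowest unadjusted p in the fit with the block, in LG (left) and HG (right). Points are libraries, coloured and joined by replicate number, and the black bars give mean ± SD over 4 libraries. The lines run the same way in each pair while the groups overlap.

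Among the transporters, Slc7a1 had the lowest p of the members. Slc7a1 (ENSMUSG00000041313, chr5:148327410-148399904) encodes CAT1, which imports arginine and lysine, and stood at 47.1, 53.2, 53.2 and 59.9 CPM in LG, against 58.5, 65.1, 63.1 and 65.5 CPM in HG. The values of the groups overlapped only between LG replicate 4 and HG replicate 1. With the block the log2 fold change was -0.24 (interval -0.37 to -0.11, edgeR adjusted p = 0.114). DESeq2 with the block called it lower in LG (adjusted p = 0.0385), and over the 20 alternatives its adjusted p ran from 0.0385 to 1.00 and its sign was negative in 20. Its relative Slc7a3, which encodes CAT3, was higher in LG in 4 of 4 pairs at 1.86, 2.39, 7.07 and 8.47 CPM, against 1.53, 1.84, 5.25 and 7.86 CPM in HG (log2 fold change 0.29, edgeR adjusted p = 0.312). Replicates 3 and 4 were high in both groups.

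The exchangers of neutral amino acids and cystine differed between the pairs in both directions. Slc7a5 encodes LAT1, which exchanges glutamine for leucine, and had 121, 115, 98.4 and 103 CPM in LG, against 100.4, 122, 105 and 113 CPM in HG. Its heavy chain partner Slc3a2 averaged 97.5 ± 4.01 CPM in LG and 94.2 ± 6.36 CPM in HG (SD, n = 4 each), with an interval from -0.088 to 0.19. Slc7a6, another light chain of Slc3a2, averaged 63.7 ± 7.56 CPM in LG and 63.7 ± 6.60 CPM in HG, with a log2 fold change of -0.0027 and an interval from -0.13 to 0.12. Slc7a11, the cystine and glutamate exchanger xCT, ranged from 16.4 to 24.8 CPM in LG and from 17.6 to 26.5 CPM in HG, and its pair differences ran from -0.37 in pair 2 to 0.42 in pair 3. Slc1a5, a neutral amino acid exchanger, averaged 6.52 ± 0.923 CPM in LG and 6.62 ± 0.649 CPM in HG.

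Between the preparations, Slc6a9, Phgdh, Slc1a4, Slc7a3, Slc38a1 and Slc38a2 differed. An edgeR F test over the 3 preparation codes, with the glucose group as covariate, called 6 of 33 members (18.2%), against 13.7% of all genes, so the share of members was near that of all genes. The 6 were 5 of 11 transporters and 1 of 11 enzymes, while 0 of 11 tested regulators passed. Because it counts replicates 1 and 2 as separate libraries, this test measures the spread between libraries. Replicates 1 and 2 did not overlap replicates 3 and 4 in 9 of 33 members, against 23.1% of all genes.

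**Figure D4:**
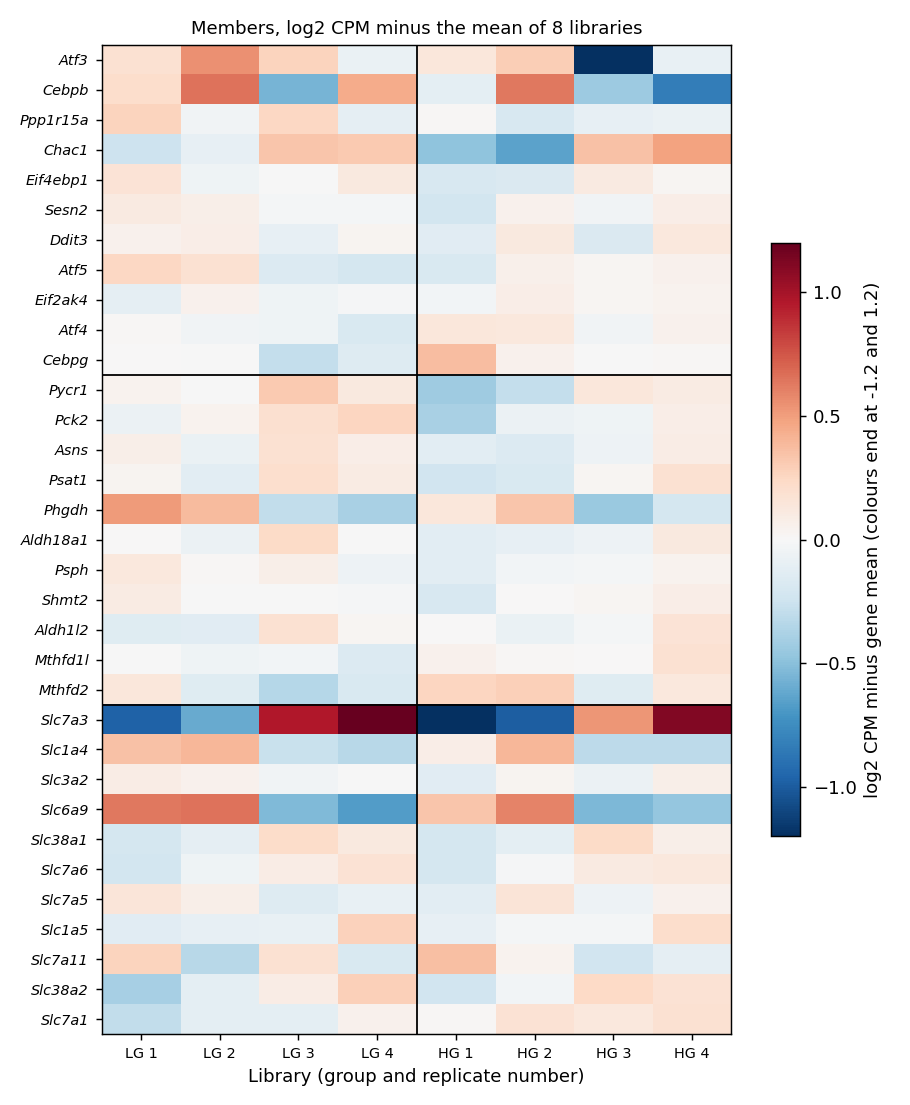
Log2 CPM minus the mean of the 8 libraries (colour) for the 33 tested members (rows, by role) in each library (columns, LG left of HG). Slc7a3 and Slc6a9 show opposite patterns, the first high in replicates 3 and 4 of both groups and the second high in replicates 1 and 2.

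Slc6a9, Phgdh and Slc1a4 were higher in replicates 1 and 2 of both groups. Slc6a9, the glycine transporter GlyT1, had 40.8, 41.3, 18.2 and 16.5 CPM in LG replicates 1 to 4 and 33.2, 39.9, 18.1 and 19.0 CPM in HG (edgeR adjusted p = 5.2e-05 between preparations). Phgdh had 274, 250, 157 and 147 CPM in LG and 211, 242, 141 and 166 CPM in HG (edgeR adjusted p = 9.2e-04). Slc1a4, a transporter of serine and alanine, had 68.2, 70.3, 44.3 and 42.4 CPM in LG and 56.7, 70.7, 43.0 and 43.1 CPM in HG (edgeR adjusted p = 0.00115). In each of these genes every library of replicates 1 and 2 stood above every library of replicates 3 and 4, and the difference between glucose levels within pairs did not pass. In LG against HG with the block, Phgdh was at 0.099 (interval -0.079 to 0.28), Slc1a4 at 0.070 (-0.076 to 0.21) and Slc6a9 at 0.041 (-0.14 to 0.22).

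Astrocyte markers followed the same split of libraries. The summed level of 12 astrocyte markers was 2010 to 2188 CPM in replicates 1 and 2 and 770 to 928 CPM in replicates 3 and 4, and 11 of the 12 were higher on average in replicates 1 and 2. Defining markers were low but not at 0 in replicates 3 and 4, with Aqp4 at 2.82 to 6.38 CPM against 105 to 114 CPM in replicates 1 and 2, and Gfap at 2.14 to 5.84 CPM against 64.9 to 81.9 CPM. The part of these cells in the Slc6a9, Phgdh and Slc1a4 levels was not tested, and in bulk RNA fewer cells of a type and less RNA per cell cannot be told apart. Between glucose groups the astrocyte sum overlapped, at 770 to 2188 CPM in LG and 866 to 2063 CPM in HG, and was higher in LG in 2 of 4 pairs.

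Slc7a3, Slc38a1 and Slc38a2 were higher in replicates 3 and 4. Slc7a3 had the largest split of the members, with 1.53 to 2.39 CPM in replicates 1 and 2 and 5.25 to 8.47 CPM in replicates 3 and 4 (edgeR adjusted p = 1.6e-05). Slc38a1, a sodium-coupled glutamine transporter gene, had 170, 181, 228 and 212 CPM in LG and 169, 180, 230 and 205 CPM in HG (edgeR adjusted p = 0.00887). The LG and HG libraries of the same number differed little, with pair differences of Slc38a1 from -0.0084 to 0.046. Slc38a2, the glutamine transporter SNAT2 and a classic target of amino acid starvation, had 265, 322, 373 and 425 CPM in LG and 299, 341, 412 and 393 CPM in HG (edgeR adjusted p = 0.0284). The call for Slc38a2 ended without any 1 of LG replicates 1, 3 and 4 and HG replicates 1 and 3, with adjusted p of 0.0543, 0.0674, 0.0855, 0.127 and 0.0832 by edgeR, and that for Slc38a1 without LG replicate 3 (0.0685) or HG replicate 3 (0.0769). Progenitor markers had the same direction, with a sum of 10 markers of 9151 to 10096 CPM in replicates 1 and 2 and 11806 to 12471 CPM in replicates 3 and 4. Of the 10, 1 was higher on average in replicates 1 and 2, and edgeR called 5 between preparations. The direction was not particular to progenitor markers. Of 10 premyelinating markers, 1 was higher on average in replicates 1 and 2, and edgeR called 8 between preparations. The part of either marker set in these levels was not tested.

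**Figure D5:**
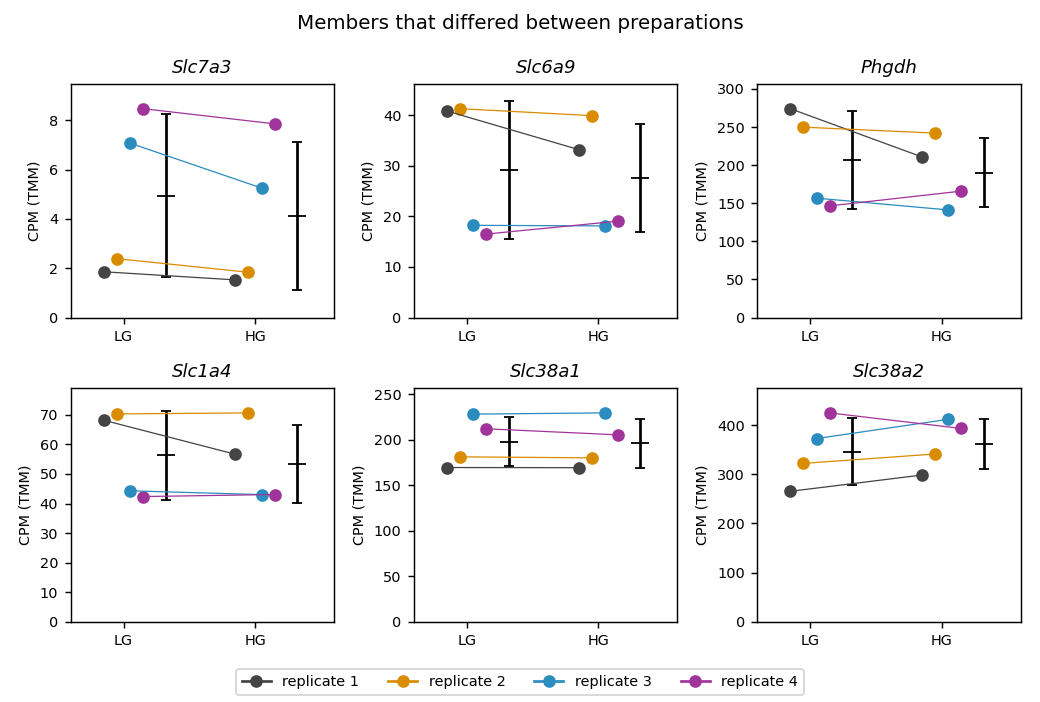
TMM-normalised CPM (y axis) of the 6 members called between preparations, in LG (left) and HG (right). Points are libraries, coloured and joined by replicate number, and the black bars give mean ± SD over 4 libraries. Replicates 1 and 2 part from 3 and 4 in both groups.

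Other genes of the pathway were also not called between LG and HG. By edgeR none passed, with or without the block, among 12 tested genes of eIF2, its kinases and eIF2B, 13 other ATF4-linked genes, 20 cytosolic aminoacyl-tRNA synthetases, 19 genes of the unfolded protein response, 13 other folate and glycine enzymes, 20 other amino acid transporters and 19 genes of amino acid sensing for mTORC1. Their unadjusted p with the block was under 0.05 for 3, 1, 1, 2, 5, 4 and 2 genes of these lists in the same order, against 13.4% of all genes. Median log2 fold changes with the block were -0.0065, 0.0018, 0.012, 0.042, -0.029, 0.0045 and 0.054 in that order, against 0.0015 over all genes. The transfer RNA synthetase genes, many of them ATF4 targets, spanned -0.20 to 0.10.

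The gene with the lowest p is given for 6 of these lists. Slc1a1, a glutamate transporter gene, averaged 149.5 ± 34.6 CPM in LG and 129 ± 26.2 CPM in HG (SD, n = 4 each; log2 fold change with the block 0.21, edgeR adjusted p = 0.141). Eprs, the glutamyl-prolyl-tRNA synthetase gene, was at -0.20 and Hsp90b1, an endoplasmic reticulum chaperone gene, also at -0.20. Eif2ak2, which encodes the RNA-activated eIF2 kinase PKR, was at -0.30, Sqstm1, an autophagy receptor gene, at 0.17, and Flcn, a regulator of mTORC1 at the lysosome, at 0.17. By edgeR the adjusted p of these 6 genes ran from 0.141 to 0.349. Of these 6, DESeq2 with the block called 1, Slc1a1, higher in LG.

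Total counts overlapped, at 53869166 to 65733928 per LG library and 50864130 to 61915909 per HG library, of which the 35 members took 0.264% to 0.279% in LG and 0.243% to 0.280% in HG. Microglial markers were close to absent: 3 of 12 were at 0 in all libraries and their summed level was 2.29 to 3.48 CPM in LG and 2.28 to 2.97 CPM in HG. Neuronal markers summed to 1124 to 1233 CPM in LG and 1190 to 1417 CPM in HG, most of it from Map2. The sum of 10 mural markers was 32.0 to 52.1 CPM in replicates 1 and 2 and 9.37 to 11.4 CPM in replicates 3 and 4, but 4 of the 10 were higher on average in replicates 1 and 2 and 2 of 6 tested were called between preparations. Most of that sum was Notch3, with a mean of 40.0 CPM in replicates 1 and 2 and 7.91 CPM in replicates 3 and 4. Premyelinating markers summed to 1828 to 2605 CPM in LG and 1665 to 2295 CPM in HG, with LG above HG in each of the 4 pairs. With the replicate block, 10 of these 10 markers had a log2 fold change above 0, with a median of 0.27. Of the 10, edgeR called 2 higher in LG, against 0.418% of all genes called. The part of these markers in the members' levels was not tested. The strand setting of the counts is not given, and exons of some members overlap genes on the other strand. Exons of Psph overlap a Cct6a transcript by 452 bases, those of Aldh1l2 D10Wsu102e by 1056 and those of Cebpb Tmem189 by 312. Cct6a had 153156 counts in all, D10Wsu102e 38285 and Tmem189 14012. Psph held only 2586 to 3374 counts per library and Cebpb 33 to 100. How many of these came from the neighbouring genes was not tested. Those of Atf5 overlap Nup62 by 82 bases and those of Ddit3 overlap Mars by 68. Those of Slc6a9 overlap B4galt2 by 46 bases and Ccdc24, which had only 196 counts in all, by 1258. Reads of these pairs may not have been told apart where they overlap.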

How the data were processed

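The authors deposited unnormalised whole-number counts for each Ensembl ID in 8 libraries. Per the submitters' processing notes, the tools were featureCounts, STAR, CASAVA 1.8.2 and DESeq2, and mm10 was the genome build; their order is not recorded. How strand and multiply mapped reads were handled, and which annotation was counted, is not given in the sources used here. Total counts exceed the read-pair depth that the labels' protocols state, and whether mates were counted singly is not given.

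Of the 56980 IDs, 52125 had a symbol in GENCODE M21 (GRCm38). A second Ddit3 ID, at 0 in all libraries, was not used. The 35 members and all gene lists were chosen with earlier results of these data known. Every member is named, and of the other lists the gene with the lowest p, 1 of which is not reported here.

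Counts were tested in R 4.3.3 with edgeR 4.0.16 (filterByExpr, TMM, robust quasi-likelihood test, Benjamini-Hochberg adjustment over 18905 genes, threshold 0.05). CPM values use TMM factors, and log2 CPM a prior count of 2. An SE is the absolute log2 fold change over the square root of F, and intervals are 95% t intervals on the test's degrees of freedom. The replicate numbers were taken to pair the libraries, from the shared preparation codes and from the correlation of deviations from group means across genes. Between same-numbered LG and HG libraries r ran from 0.448 to 0.625, and between different numbers it was at most 0.419. Deviations within a group cancel out, which lowers r between different numbers. Replicates 1 and 2 also share a code, so r cannot settle which of their LG and HG libraries form a pair. DESeq2 1.42.0, other filters and scaling, other blocks, left-out libraries and GC and length offsets (mgcv 1.9.3) were the alternatives. The tests were tried on simulated counts, but no outcome is given here and no conclusion is drawn from that trial. p-values measure the spread between these libraries, which carry 3 codes.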

Additional observations from a re-analysis of the deposited data

Results flagged for a closer look

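In 66 groups of 4 libraries (33 members in LG and in HG), 4 had 1 library far from the other 3, measured by its gap to the nearest library relative to the range of the group, and chance gives about 1 in 20. Shmt2 was highest in LG replicate 1 at 6.79 log2 CPM, with the next library at 6.69. Slc1a5 was highest in LG replicate 4 at 2.99 log2 CPM, with the next at 2.63. Cebpg was highest in HG replicate 1 at 5.21 log2 CPM, with the next at 4.88. For Atf5 the lowest HG library was replicate 1, with 4.64 log2 CPM, and the next had 4.84.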

How the results depend on the processing

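Of the 33 tested members, 16 kept the sign of their log2 fold change in LG against HG over 20 alternatives and 17 did not, and 1 member, Slc7a1, passed in at least 1 of them (DESeq2 with the replicate block, count of members 1). The count of genes in LG against HG was 0 without a block, 79 with the replicate block, 151 with the block and GC and length offsets, 1 with the preparation block, 17 with replicates 1 and 2 summed, 7 by DESeq2 and 453 by DESeq2 with the block. Leaving out 1 library or pair gave 0 to 148 genes: 0 without any 1 library and no block, and with the block 6, 0, 39 and 148 when pairs 1, 2, 3 and 4 were left out in turn. The replicate block changed no call of a member by edgeR. Between preparations, 2585 genes passed, 3883 with the replicate number as 4 levels, and 1575 to 2162 without 1 library (1575, 1626 and 1618 without LG replicate 3, HG replicate 3 and HG replicate 4). Members called there numbered 10 with the offsets, which added Psat1, Aldh1l2, Pycr1 and Slc7a6. In that fit 3846 genes passed, so the count over all genes rose as well. Without 1 library of replicate 1 or 2, 5 or 6 members were called.

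Signs turned as follows, with no call, and the cause was not tested. With the block and the offsets, log2 fold changes were -0.061 for Atf5, -0.027 for Sesn2, -0.035 for Shmt2, 0.0049 for Aldh1l2, 0.015 for Slc7a6, 0.13 for Slc7a11, 0.0054 for Slc38a2 and -0.036 for Slc6a9. With replicates 1 and 2 summed they were -0.046 for Atf5, 0.013 for Slc7a6 and 0.034 for Slc7a11. Slc7a6 was at 0.0055 with DESeq2 size factors and by DESeq2, 0.0039 by DESeq2 with the block and 0.0029 with no filter. The fits without 1 library had no block, so LG and HG then held unequal shares of the preparations. Those without a pair kept the block, and the ranges given next span both kinds of fit. Leaving out 1 library or pair gave ranges of -0.12 to 0.022 for Aldh1l2, -0.11 to 0.12 for Atf5, -0.070 to 0.28 for Chac1, -0.024 to 0.087 for Ddit3, -0.043 to 0.28 for Phgdh, -0.020 to 0.12 for Sesn2, -0.040 to 0.084 for Shmt2, -0.047 to 0.26 for Slc1a4, -0.13 to 0.049 for Slc1a5, -0.064 to 0.10 for Slc38a1, -0.17 to 0.047 for Slc38a2, -0.0080 to 0.10 for Slc3a2, -0.13 to 0.34 for Slc6a9, -0.18 to 0.10 for Slc7a11, -0.13 to 0.78 for Slc7a3, -0.10 to 0.057 for Slc7a5 and -0.064 to 0.067 for Slc7a6. Depth limits Atf3, Trib3, Nupr1, Chac1 and Cebpb.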
